A study of Mus musculus with 15 samples.

Results

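The genes described here encode ubiquitin-conjugating (Ube2) and ubiquitin-specific protease (Usp) enzymes of the mouse. Members were taken by name from the probe annotation: every gene with a probe set annotated to one symbol that begins with Ube2 and a letter or with Usp and a digit, leaving out Ube2c and Usp18. The rule gave 82 genes, 32 Ube2 and 50 Usp, of 18193 genes named on the array, and no measured level entered it. Each gene was read from 1 probe set, the one with the highest mean over the 15 arrays. Among the 82, 62 genes had several probe sets. Of these symbols 4 match by name without naming an enzyme of either kind: Ube2cbp encodes a ubiquitin ligase that binds an E2, Usp6nl a Rab GTPase-activating protein, and Ube2d-ps and Usp46os2 are a pseudogene and an opposite-strand transcript.

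RNA came from spleen lymphocytes of B6x129 mice, in 5 groups of 3 arrays. The B cells were resting (0 h) or had been kept for 4 h with lipopolysaccharide at 25 ug/ml (LPS, a bacterial cell-wall lipid that activates them). The T cells were resting (0 h) or had been exposed to the plant lectin concanavalin A, ConA, which activates them, at 7.5 ug/ml for either 4 h or 14 h. No allele, deletion or transgene is named for any group, and the age of the mice is not given in the labels. Cells kept in culture without a stimulus are not among the groups, and the effects of culture and of stimulus cannot be told apart. The labels do not say whether the arrays of a group came from separate mice or cultures, and p-values may measure technical spread only. An equal mass of RNA, 100 ng, was labelled for each array, so a difference is relative to the other RNAs of a sample and RNA per cell is not seen. The number of arrays limits the precision.

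Ubiquitin is attached to proteins by a relay in which an E1 enzyme activates it, an E2 (most Ube2 proteins) carries it and an E3 ligase joins it to the target. The E2 often sets which chain is built: some chains send a protein to the proteasome, while chains linked through the lysine K63 carry signals from antigen and Toll-like receptors. The USPs form the largest family of deubiquitinases and cut ubiquitin off again. In lymphocytes both kinds of enzyme act in receptor signalling, in protein turnover during cell growth and in DNA repair.

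Values are log2 signals after GCRMA, with a floor of 2.24 where a probe set gives no signal above background. A gene was tested when its highest group mean reached 5, and a difference was called at a limma p below 0.05 after Benjamini-Hochberg adjustment over the 9044 genes tested. Of the 82 members, 66 were tested. The other 16 were Usp2, Usp9y, Usp13, Usp17la, Usp26, Usp27x, Usp29, Usp43, Usp44, Usp46os2, Usp49, Usp50, Ube2d2b, Ube2l6, Ube2ql1 and Ube2u, and none of them had a group mean above 4.31. That highest mean belonged to Usp2 in resting T cells, where all 3 arrays read 4.31 while all 6 B cell arrays lay at the floor. Ube2e2 and Usp54 passed the filter through a single group, resting B cells and 4 h T cells, so that each had to differ somewhere.

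Arrays of one group correlated at 0.995 to 0.999 over all probe sets, and arrays of different groups at 0.893 to 0.990. B and T cell markers separated the preparations: the summed T cell marker level was 15.7 on resting T cell arrays and 6.63 to 6.71 on resting B cell arrays, and the B cell marker sum was 10.3 to 10.5 and 16.7 to 16.8. Other cells were represented too. Of 9 erythroid markers tested, 8 fell in B cells with LPS (median change of the 9, -1.43), and ConA was followed by 6 falls at either time (medians -2.63 and -3.88); Tfrc, which activated lymphocytes also express, rose each time. In B cells 6 of 7 monocyte, macrophage and neutrophil markers fell, their sum moving from 12.6-12.7 to 11.6-11.8. In T cells that sum was 8.94 to 9.35 at 0 h, 10.6 to 11.1 at 4 h and 7.13 to 7.42 at 14 h. The neutrophil gene S100a8 had means of 7.48, 10.19 and 4.67 at these times and S100a9 of 6.20, 8.65 and 2.65, and Itgam was at the floor on T cell arrays. Fewer cells of a type and less RNA per cell cannot be told apart in such samples. Resting T cell replicate 2 and ConA 4 h replicate 1 had the weakest 5-prime signal of a spike-in control, with 3-prime minus 5-prime differences of 4.59 and 5.94 against 0.90 to 2.67 on the other arrays. The part of either in the results below was not tested, except where values without those arrays are given.

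With LPS, B cells raised more of these genes than they lowered. Of the 66 tested, 51 were called (77.3%, beside 79.9% of all genes): 35 rose (53.0%) and 16 fell (24.2%); over all genes tested, 37.6% rose and 42.3% fell. The median change of the members was 0.31 on the log2 scale, and that of all genes was -0.05. Among Ube2 genes 17 of 28 rose and 6 fell, and among Usp genes 18 of 38 rose and 10 fell. Changes of at least 2-fold were seen in 11 members upward and 6 downward, which is 16.7% and 9.09%, beside 18.7% and 24.1% of all genes.

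**Figure D1:**
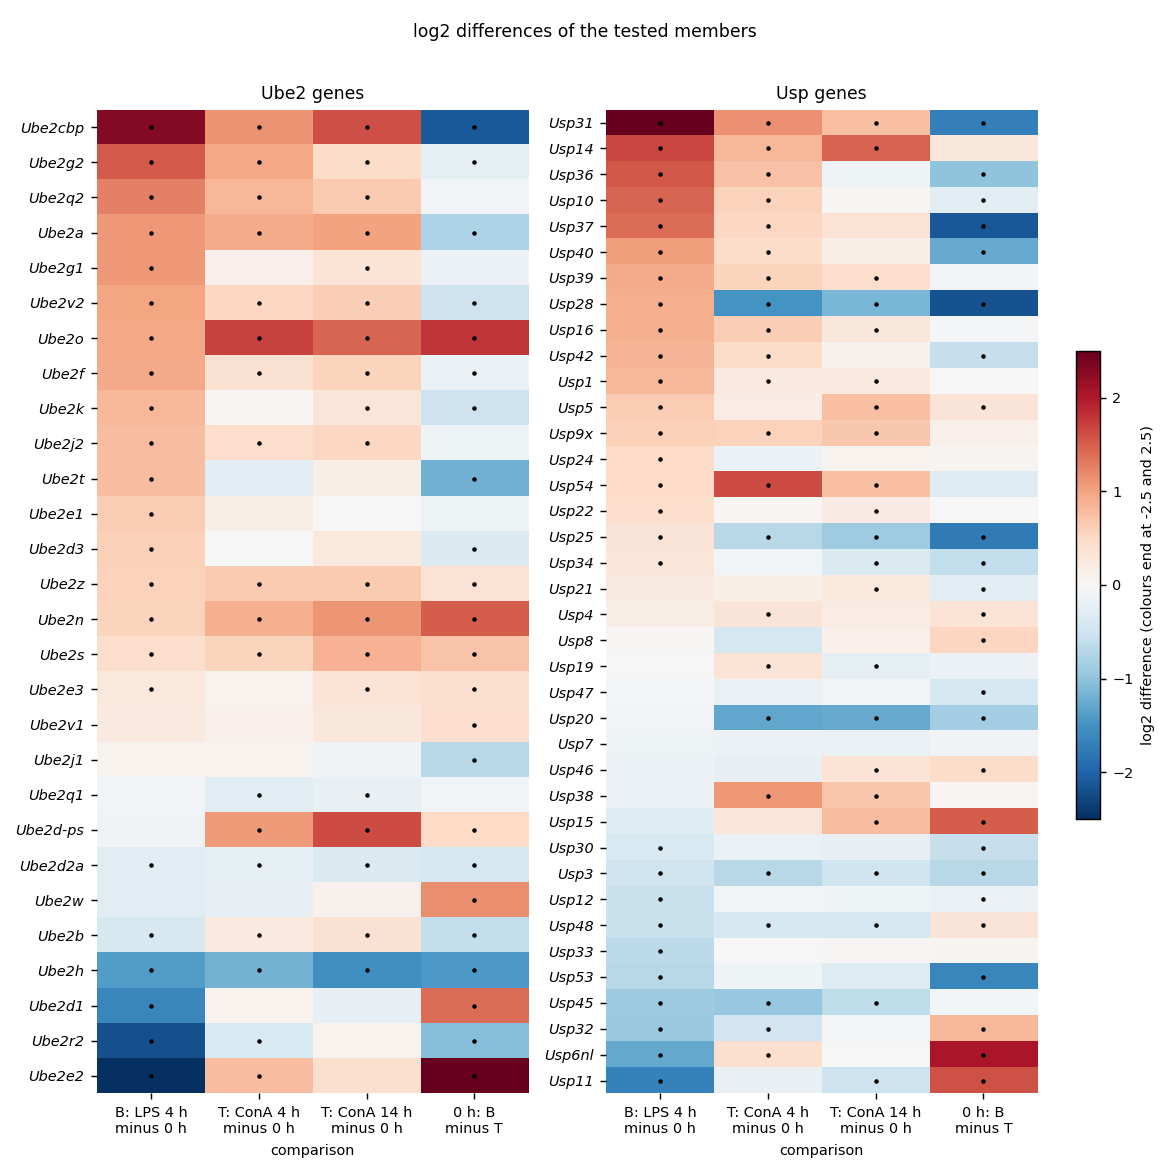
Each row is one of the 66 tested members, Ube2 genes on the left and Usp genes on the right, ordered by the change with LPS in B cells. Colour gives the log2 difference in 4 comparisons and a dot marks an adjusted p under 0.05. With LPS 35 members rose and 16 fell. Usp28, Usp25, Usp6nl, Ube2b and Ube2e2 carry opposite colours, both with a dot, in the B cell and 4 h T cell columns.

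Usp31, a USP described as a brake on NF-kappaB signalling, rose most. Its 3 resting B cell arrays read 4.92, 5.63 and 5.76, and the 3 LPS arrays read 7.90, 8.08 and 8.13. The groups did not overlap and differed by 2.60 ± 0.17 (SE), or 6.06-fold (adjusted p = 3.8e-09). In resting T cells the gene already stood at 7.37, 7.08 and 6.99, above every resting B cell array, and ConA brought it to 8.21, 8.34 and 8.31 at 4 h.

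USPs known to take ubiquitin off the Myc protein, Usp28, Usp36 and Usp37, all rose in B cells, and all were lower in resting B than in resting T cells. Usp36, a nucleolar enzyme, read 7.56, 7.57 and 7.72 at 0 h and 9.27, 9.05 and 9.21 with LPS, a rise of 1.56 ± 0.08 (adjusted p = 2.0e-10). A second Usp36 probe set rose by 3.32 and another moved by 0.07. Usp37, also a cell-cycle enzyme, went from 6.44, 6.25 and 5.55 to 7.58, 7.46 and 7.39, a rise of 1.40 ± 0.17 (adjusted p = 3.2e-06). Both sets of arrays were apart, the lowest LPS array of each gene standing above its highest 0 h array. Usp28 rose by 0.92 ± 0.11 from 7.14, 7.05 and 7.22 to 8.06, 7.87 and 8.23.

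The proteasome-bound USP, Usp14, which trims chains from proteins about to be degraded, rose from 9.0, 9.18 and 8.85 to 10.66, 10.67 and 10.72. The rise was 1.67 ± 0.22 (3.19-fold, adjusted p = 7.6e-06), and the other 3 Usp14 probe sets rose by 1.31 to 2.51. Usp5, which takes apart unanchored chains, rose by 0.63 ± 0.09. Usp13, the paralog of Usp5, was at the floor on all B cell arrays and was not tested.

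E2s of the endoplasmic reticulum degradation route and of cullin ligases moved far in both directions. Ube2g2, which serves that route, read 7.73, 7.67 and 7.65 at 0 h and 9.22, 9.21 and 9.22 with LPS, a rise of 1.53 ± 0.06 (adjusted p = 1.5e-11), with 1.47 from its other probe set. Ube2g1 rose by 1.08 ± 0.12 (1.72 as the mean of its probe sets), Ube2k, which builds K48 chains, by 0.83 ± 0.05, and the membrane-anchored Ube2j2 by 0.78 ± 0.08. Ube2j1, its close relative, moved by 0.08 ± 0.09 (adjusted p = 0.40). On the other probe set of each gene Ube2j2 moved by 0.10 and Ube2j1 by 0.59, so this contrast depends on the probe set. Ube2r2, a Cdc34-type E2 of cullin ligases, fell from 9.64, 9.86 and 9.62 to 7.55, 7.32 and 7.66. The change of -2.20 ± 0.11, or 4.59-fold (adjusted p = 2.0e-10), left the LPS arrays below every T cell array; as the mean of the gene's probe sets it was -1.16.

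Within the Ube2d and Ube2e families, whose members work with many E3 ligases, single genes took opposite courses. Ube2e2 was the member that fell furthest: resting B cells read 7.12, 7.53 and 7.23 and LPS arrays 3.78, 3.13 and 3.21. The change was -3.92 ± 0.20 (15.1-fold), and the LPS level, below the filter, stood where resting T cells stood, at 3.15, 3.51 and 3.51. Ube2e2 passed the filter through resting B cells alone, so this fall was fixed in advance and its p-value gives no support. Its relatives Ube2e1 and Ube2e3 rose, by 0.63 ± 0.07 and 0.26 ± 0.06. Ube2d1 fell from 10.10, 10.07 and 9.93 to 8.53, 8.22 and 8.48 (-1.62 ± 0.19, adjusted p = 2.3e-06), whereas Ube2d3 rose by 0.59 ± 0.15 and Ube2d2a fell by 0.26 on the log2 scale.

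E2s of K63 chains and of DNA repair mostly rose. Ube2n, which makes K63 chains, rose by 0.56 ± 0.10 and its partner Ube2v2 by 0.98 ± 0.07, while the alternative partner Ube2v1 moved by 0.25 ± 0.15 (adjusted p = 0.14). Ube2a, a Rad6-type E2 that marks PCNA and histone H2B, rose from 10.26, 10.28 and 10.29 to 11.37, 11.39 and 11.33. Ube2b, the other Rad6-type E2, fell over the same arrays, from 11.78, 11.85 and 11.82 to 11.51, 11.33 and 11.42 (-0.40 ± 0.07, adjusted p = 0.00011). Ube2t, of the Fanconi pathway, rose by 0.78 ± 0.17, and Ube2s, which extends K11 chains in mitosis, by 0.44 ± 0.08. Markers of dividing cells went the other way, 11 of 11 tested falling, beside 42.3% of all genes. At 0 h 10 of the 11 were higher in B than in T cells, beside 25.4% of all genes, Mki67 with means of 11.86 and 9.37. The B cells called resting here thus held RNA of dividing cells, and its part in these changes was not tested.

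Of the remaining E2s, Ube2q2 rose by 1.25 ± 0.10, Ube2f, which carries the ubiquitin-like protein Nedd8, by 0.94 ± 0.06, and Ube2z, which is charged by the E1 Uba6, by 0.58 ± 0.07. Ube2o, an E2 with ligase activity of its own, rose by 0.96 ± 0.22. Ube2h, an E2 abundant in erythroid cells, fell from 10.16, 10.15 and 9.82 to 8.75, 8.55 and 8.63 (-1.40 ± 0.13), and its other 3 probe sets fell by values from -0.90 to -1.74. The erythroid marker sum moved in the same direction, from 14.1-14.2 to 13.6-13.7, with Tfrc rising from 12.16 to 12.90 within it.

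USPs of other roles were divided. Usp10, which pairs with the stress-granule protein G3bp1, rose from 8.80, 8.84 and 8.71 to 10.22, 10.20 and 10.30 (1.46 ± 0.08, adjusted p = 3.2e-10). Usp39, a splicing factor without protease activity, rose by 0.93 ± 0.06, Usp16, a histone H2A enzyme, by 0.88 ± 0.11, and Usp1, which acts on PCNA, by 0.84 ± 0.07. Usp22, the SAGA subunit, rose by 0.44 ± 0.08, and Usp3, another H2A enzyme, fell by 0.50 on the log2 scale. Usp7, which controls p53 and Mdm2, read 11.39 to 11.5 at 0 h and moved by -0.13 ± 0.11 (adjusted p = 0.30, 95% interval -0.37 to 0.11). Taken as the mean of all probe sets of a gene, dim ones included, the changes were smaller for Ube2s (0.22), Ube2e1 (0.39), Usp16 (0.44) and Usp3 (-0.32) and larger for Usp1 (1.26) and Usp22 (0.89), with the same calls.

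Among the USPs the largest fall was that of Usp11, a nuclear repair enzyme, from 8.61, 8.5 and 8.23 to 7.10, 6.39 and 6.76 (-1.70 ± 0.19, 3.24-fold, adjusted p = 1.6e-06). No LPS array reached the lowest 0 h array. Of the 6 organelle and membrane USPs, Usp32 (-0.94 ± 0.14), Usp33 (-0.65 ± 0.13) and Usp30 (-0.38 ± 0.14) fell, and the other 3 were not called. Of all genes 42.3% fell, a share near that of these 6. The Usp30 fall, of a mitochondrial enzyme near the filter, was not called without B cell 0 h replicate 2, at -0.21, or without LPS replicate 3, at -0.35. Usp45 fell by 0.91 and Usp12 by 0.55 on the log2 scale.

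**Figure D2:**
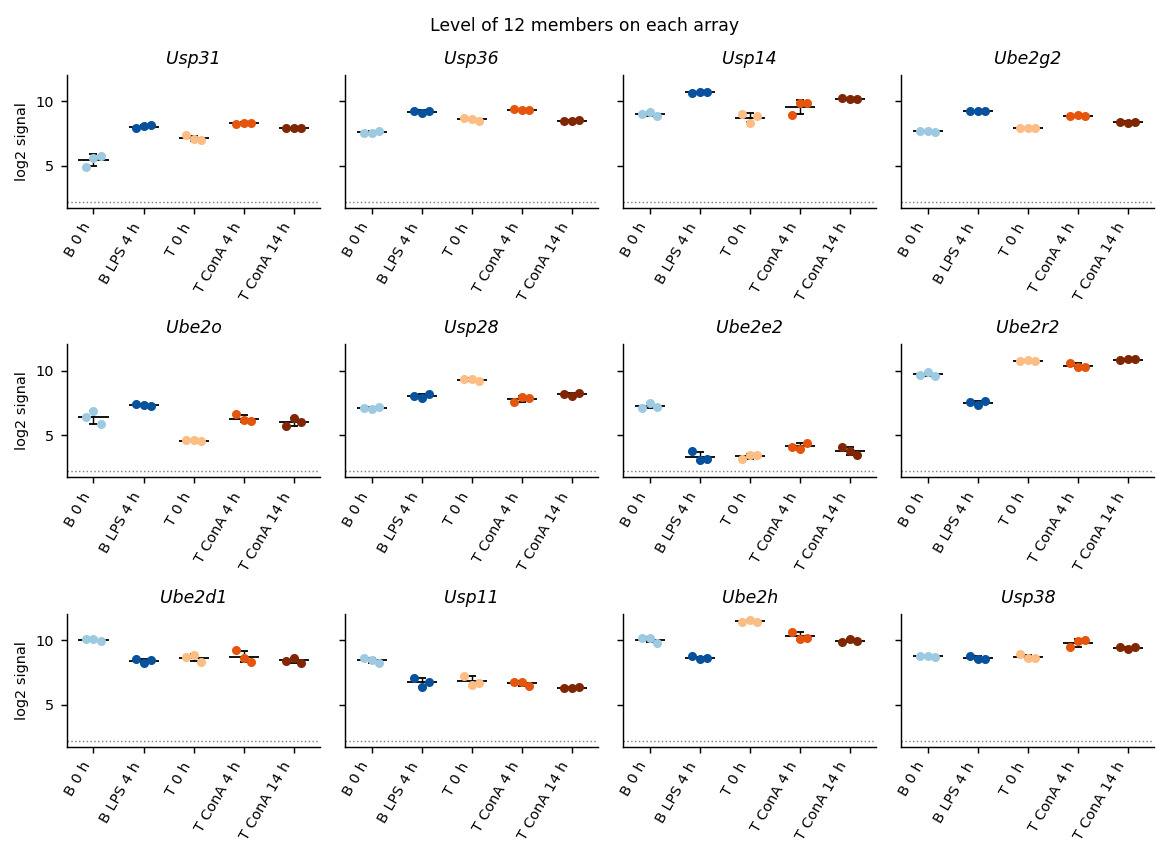
Log2 signal of 12 members on each of the 15 arrays, by group; the horizontal line is the group mean, the bar is the SD (n = 3) and the dotted line is the floor of 2.24. Usp31 climbs from 5.44 to 8.04 in B cells with LPS, Ube2e2 is above 7 in resting B cells and below 5 on every other array, and Usp28 is highest in resting T cells.

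The upstream sequences of 6 enzymes with large changes in B cells, 3 that rose and 3 that fell, are shown because the study concerns Myc, whose dimer with Max binds the E-box CACGTG. They are the furthest moved in each direction among Ube2 and Usp enzymes with a level of at least 7 that were matched to a RefSeq window; Usp14 and Ube2g2, which rose further than Usp10, are not shown. Each is the 250 bases before the annotated start in RefSeq (GRCm38.p6), 5′ to 3′ on the gene's strand, from the most upstream entry. Capitals mark a match on either strand to the E-box CACGTG, the CCAAT box, the ETS motif CCGGAAGT or the CRE TGACGTCA. No letters of one motif hold another of the 4.
Rose with LPS,
Usp31, chr7:121707443-121707692, minus strand: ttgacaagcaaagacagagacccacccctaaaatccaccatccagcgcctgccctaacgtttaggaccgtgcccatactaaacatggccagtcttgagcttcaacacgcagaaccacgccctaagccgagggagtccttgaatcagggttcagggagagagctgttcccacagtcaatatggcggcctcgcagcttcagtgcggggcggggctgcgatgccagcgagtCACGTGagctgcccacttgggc
Usp36, chr11:118290245-118290494, minus strand: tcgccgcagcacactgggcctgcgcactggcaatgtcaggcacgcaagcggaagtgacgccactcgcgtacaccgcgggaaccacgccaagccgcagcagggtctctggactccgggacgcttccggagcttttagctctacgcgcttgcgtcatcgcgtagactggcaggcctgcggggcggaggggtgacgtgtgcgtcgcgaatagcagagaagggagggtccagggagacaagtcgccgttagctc
Usp10, chr8:119910110-119910359, plus strand: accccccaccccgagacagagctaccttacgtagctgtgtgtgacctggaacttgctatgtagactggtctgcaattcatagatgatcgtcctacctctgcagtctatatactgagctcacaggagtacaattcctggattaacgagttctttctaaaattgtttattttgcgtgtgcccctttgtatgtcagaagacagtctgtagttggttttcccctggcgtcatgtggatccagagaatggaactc
Fell with LPS,
Ube2e2, chr14:18893772-18894021, minus strand: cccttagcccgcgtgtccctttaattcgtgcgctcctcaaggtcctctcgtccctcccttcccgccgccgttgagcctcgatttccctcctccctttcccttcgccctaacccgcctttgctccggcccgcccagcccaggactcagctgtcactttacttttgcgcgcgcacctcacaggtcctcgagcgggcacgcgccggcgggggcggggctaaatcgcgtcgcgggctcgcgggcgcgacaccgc
Ube2r2, chr4:41135771-41136020, plus strand: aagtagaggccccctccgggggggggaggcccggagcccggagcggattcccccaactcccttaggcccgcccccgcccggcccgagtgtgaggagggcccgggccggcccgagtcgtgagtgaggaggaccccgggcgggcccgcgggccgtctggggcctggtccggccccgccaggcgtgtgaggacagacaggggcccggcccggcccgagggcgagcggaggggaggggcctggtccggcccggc
Usp11, chrX:20703659-20703908, plus strand: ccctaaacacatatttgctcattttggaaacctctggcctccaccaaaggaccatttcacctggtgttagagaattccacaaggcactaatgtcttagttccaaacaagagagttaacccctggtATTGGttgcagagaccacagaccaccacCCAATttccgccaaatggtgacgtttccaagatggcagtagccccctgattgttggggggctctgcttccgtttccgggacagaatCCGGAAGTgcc

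The Usp31 window held 1 E-box, near its 3′ end, and the Usp11 window 2 CCAAT boxes and 1 ETS motif; the other 4 windows held no match. Windows were found for 65 of the 82 members. An E-box was in 6 of them (9.23%) and in 6.04% of the 27025 windows of all genes. By response, 2 of 24 members that rose with LPS had it, as did 2 of 13 that fell and 2 of 14 that were not called. A CCAAT box was in 17 of 65 member windows (26.2%) and in 34.5% of all windows, an ETS motif in 4 (6.15%) and in 2.92%, and a CRE in 1, that of Ube2h, and in 1.60%. Member windows were richer in G and C, with a median of 65.2% against 52.0% in all windows. The windows of all genes include many genes not tested here, and tested genes were not compared separately. A match describes letters in this window only.

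In T cells, 41 members were called at 4 h of ConA (62.1%, beside 65.9% of all genes). Of the 66, 30 rose (45.5%) and 11 fell (16.7%), beside 33.4% and 32.5% of all genes. The members' median change was 0.15 and that of all genes 0.00. At 14 h, 41 were called again by count (beside 68.4%), 29 above 0 h and 12 below, beside 36.6% and 31.9%, with medians of 0.20 and 0.03. Both comparisons use the same 0 h arrays. Ube2 genes made up 14 of the rises and 4 of the falls at 4 h, and 16 and 3 at 14 h; Usp genes made up 16 and 7, then 13 and 9. In all, 6 members rose at least 2-fold at 4 h, 9.09% beside 9.34% of all genes, and 3 fell as far, 4.55% beside 11.5%.

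Ube2o had the largest rise at 4 h. Resting T cell arrays read 4.65, 4.62 and 4.56, the 4 h arrays 6.62, 6.18 and 6.10, and the 14 h arrays 5.75, 6.37 and 6.06. Both times stood clear of 0 h, by 1.69 ± 0.22 (adjusted p = 1.3e-05) and 1.45 ± 0.22 (adjusted p = 5.0e-05), and the step between them, -0.24 ± 0.22, was not called (adjusted p = 0.39). Usp54 read 3.43, 3.58 and 3.58 at 0 h, 5.11, 5.11 and 5.30 at 4 h and 4.17, 4.65 and 4.04 at 14 h. It was higher at 4 h than at either other time, at a level just inside the filter. As Usp54 passed the filter through 4 h T cells alone, this order was fixed in advance.

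Usp38, a USP with reported roles in innate signalling, read 8.91, 8.63 and 8.65 at 0 h and 9.47, 9.92 and 10.02 at 4 h, a rise of 1.08 ± 0.13 (adjusted p = 5.3e-06). It moved by -0.15 ± 0.13 with LPS in B cells. Ube2n rose from 9.01, 9.30 and 8.95 to 10.16, 9.93 and 9.80 at 4 h and stood at 10.16, 10.16 and 10.25 at 14 h, by 0.88 ± 0.10 and 1.10 ± 0.10. Ube2v2 rose by 0.51 ± 0.07 and 0.61 ± 0.07. Ube2a rose by 0.94 ± 0.07 and 1.01 ± 0.07, and Ube2s by 0.56 ± 0.08 and 0.86 ± 0.08. As the mean of all their probe sets, Ube2a rose by 0.61 and 0.66 and Ube2s by 0.28 and 0.43. Meanwhile 10 of 11 dividing-cell markers at 4 h and 11 of 11 at 14 h fell, beside 32.5% and 31.9% of all genes.

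At 4 h Usp28 fell most in T cells among members with a level of at least 7. Its arrays read 9.36, 9.38 and 9.21 at 0 h, 7.57, 8.0 and 7.88 at 4 h and 8.18, 8.07 and 8.24 at 14 h. The changes were -1.50 ± 0.11 (adjusted p = 5.7e-08) and -1.15 ± 0.11 (adjusted p = 8.0e-07), with no overlap. Usp25, the paralog of Usp28, fell by 0.69 and 0.89 on the log2 scale, from 11.54, 11.45 and 11.47 to 10.75, 10.76 and 10.89 and then to 10.55, 10.81 and 10.43; its second probe set fell by 0.84 and 1.97, and the mean of both was -1.43 at 14 h. Usp20, an enzyme of membrane receptors, fell by 1.31 and 1.26, from a mean of 6.04 ± 0.31 (SD, n = 3) at 0 h.

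Ube2h fell in T cells as in B cells: 11.43, 11.58 and 11.44 at 0 h, 10.63, 10.07 and 10.21 at 4 h, and 9.84, 10.06 and 9.95 at 14 h. The changes were -1.18 ± 0.13 and -1.53 ± 0.13, and the other 3 probe sets of the gene also moved down, by values from -0.41 to -1.36 at 4 h and from -0.46 to -1.38 at 14 h; their mean with the first was -0.96 at 14 h. Erythroid markers moved in the same direction: group means went from 12.18 to 7.94 and 7.26 for Car1, from 7.94 to 3.17 and 2.41 for Klf1 and from 8.06 to 3.27 and 3.20 for Aqp1, while Alas2 and Epb42 were at the floor at all 3 times. The summed erythroid level, 12.9 at 0 h and 12.3 to 12.4 at both later times, includes Tfrc, which rose from 10.04 to 12.17 and 12.27. The part of these cells in the Ube2h fall was not tested. Usp45 fell by 0.94 ± 0.10 on 4 h arrays and by 0.64 ± 0.10 on 14 h arrays.

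Between 4 h and 14 h of ConA 26 members were called (39.4%, beside 48.9% of all genes); 14 rose and 12 fell, beside 27.4% and 21.5%, and leaving out ConA 14 h replicate 3 left 8 rises. The largest fall among members with a level of at least 7 was that of Usp36. It read 9.37, 9.31 and 9.35 at 4 h and 8.43, 8.5 and 8.54 at 14 h, a change of -0.85 ± 0.08 (adjusted p = 1.2e-06) that left it within -0.12 ± 0.08 of the 0 h level. Usp10 likewise rose by 0.58 ± 0.08 at 4 h, fell by 0.55 between the times and stood 0.02 ± 0.08 from 0 h at 14 h. Usp19, an endoplasmic reticulum enzyme, fell by 0.57 between the times and Ube2g2 by 0.51; as the mean of its probe sets the Ube2g2 fall was not called, at -0.27.

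On the probe set used, Usp14 was the member with the largest rise from 4 h to 14 h, a value that moved with the array and the probe set. The 4 h arrays read 8.91, 9.89 and 9.86 and the 14 h arrays 10.22, 10.18 and 10.20; the difference was 0.65 ± 0.22 (adjusted p = 0.027). The low array is ConA 4 h replicate 1, the one with the weakest 5-prime spike-in signal, and without it the difference was 0.33 and not called (adjusted p = 0.10); without it and resting T cell replicate 2 together, it was 0.33 and called (adjusted p = 0.0081). It was not called without any one of the 14 h arrays (0.63 to 0.66), and the other 3 probe sets gave -0.25, -0.47 and 0.10, the mean of all 4 being 0.0079 (adjusted p = 0.96). At 4 h the arrays overlapped those of 0 h (8.98, 8.33 and 8.88), with a called change of 0.82 ± 0.22, and at 14 h Usp14 stood 1.47 ± 0.22 above 0 h (adjusted p = 4.5e-05). For that last difference the other probe sets gave 0.52, -0.19 and 1.06, and the mean of all was 0.71. Usp5 rose from 7.90, 7.87 and 7.72 to 8.36, 8.49 and 8.35 between the times (0.57 ± 0.09, adjusted p = 0.00018).

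**Figure D3:**
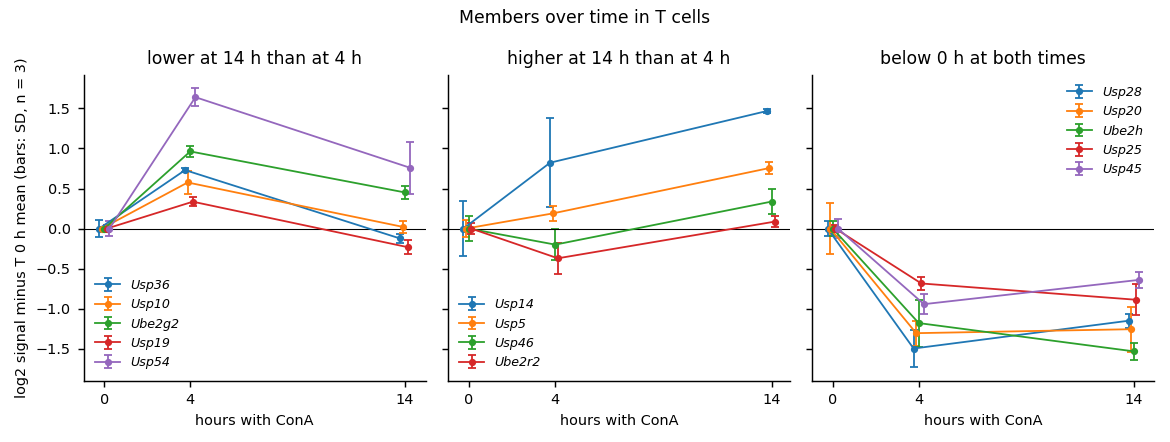
Log2 signal minus the 0 h mean in T cells at 0, 4 and 14 h of ConA; points are group means and bars the SD (n = 3), for members called lower at 14 h than at 4 h, called higher, and below 0 h at both times. Usp36 and Usp10 return to near 0 at 14 h, and the wide bar of Usp14 at 4 h comes from 1 array of 8.91.

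Before activation, resting B and T cells differed in 48 of 66 members (72.7%, beside 76.6% of all genes). In B cells 19 of 66 were higher (28.8%) and 29 lower (43.9%), beside 25.4% and 51.1% of all genes; the median difference, B minus T, was -0.13 for members and -0.27 for all genes. The direction of small differences rests on the scaling, which moved the all-gene median from -0.27 to -0.37 with array medians set equal and to -0.13 with cyclic loess. The choice of probe set mattered as well: 14 of the 28 called members with another measured probe set had one of the opposite sign, against 2 of 31 for the LPS response. The same count was 6 of 25 at 4 h of ConA, 11 of 24 at 14 h, 7 of 13 between those times and 2 of 23 in the interaction.

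Ube2e2 was 3.90 ± 0.20 higher in resting B than in resting T cells. It passed the filter through resting B cells alone, so this difference was fixed in advance and its p-value gives no support. Ube2o followed among the E2s, with 6.4, 6.92 and 5.88 in B cells against 4.65, 4.62 and 4.56 in T cells (1.79 ± 0.22), then Ube2n with 10.54, 10.60 and 10.66 against 9.01, 9.30 and 8.95 (1.51 ± 0.10, or 0.87 as the mean of its probe sets) and Ube2d1 (1.39 ± 0.19). Ube2w, which joins ubiquitin to protein amino termini, was 1.16 ± 0.18 higher on the probe set used, and its other 2 gave 0.02 and 2.36. Usp6nl, the Rab regulator, was 2.03 ± 0.10 higher in B cells and its other 2 probe sets gave 2.06 and 2.29. Usp11 was higher by 1.60 ± 0.19; its paralog Usp15 was higher by 1.51 ± 0.25 on the probe set used, and its other 2 gave -0.55 and -0.20.

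Higher in resting T cells were Usp28 (B minus T -2.18 ± 0.11), Usp37 (-2.13 ± 0.17), Usp25 (-1.77 ± 0.10), Usp31 (-1.71 ± 0.17) and Usp53 (-1.64 ± 0.17). Usp28 read 7.14, 7.05 and 7.22 in B cells and 9.36, 9.38 and 9.21 in T cells, a 4.53-fold difference without overlap. The second probe sets of Usp37, Usp25 and Usp53 gave -3.50, -0.78 and -0.86, in the same direction, and the mean over all Usp53 probe sets was -0.80. Ube2h was lower in B cells by -1.44 ± 0.13 on the probe set used, but its other 3 gave -0.52, -0.12 and 1.29, and leaving out cross-matching probe set types took the difference to -0.12, which was not called.

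The response to LPS in B cells and that to ConA at 4 h in T cells were compared through the interaction, the B cell change minus the T cell change. Cell type and stimulus cannot be told apart in it. It was called in 40 of 66 members (60.6%, beside 66.1% of all genes), positive in 27 (40.9%) and negative in 13 (19.7%), beside 31.3% and 34.9% of all genes. In both cell types 23 members rose (34.8%, against 24.2% of all genes) and 7 fell (10.6%, against 24.3%). Across the 66 members the changes correlated with Pearson's r of 0.41 and Spearman's rho of 0.57, and across all 9044 genes with 0.52 and 0.62; genes are not independent replicates, and the 2 comparisons share no array.

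In 5 members the directions were opposite, each change called, at about the share seen over all genes: 3 fell in B cells and rose in T cells (4.55%, beside 4.19% of all genes) and 2 did the reverse (3.03%, beside 3.23%). Usp28 rose in B cells and fell in T cells, a difference of 2.41 ± 0.16 (adjusted p = 1.5e-08), and after 4 h the levels were 8.06, 7.87 and 8.23 in B cells against 7.57, 8.0 and 7.88 in T cells. Usp25 did the same with 0.32 ± 0.10 in B and -0.69 ± 0.10 in T cells, a difference of 1.00 ± 0.14. Ube2e2 fell in B cells and rose in T cells by 0.76 ± 0.20, there from 3.15, 3.51 and 3.51 to 4.10, 3.93 and 4.43, levels below the filter. Its fall in B cells was fixed in advance by the filter. Usp6nl fell by 1.29 in B cells and rose by 0.40 ± 0.10 in T cells. Ube2b fell by 0.40 in B cells and rose by 0.24 ± 0.07 in T cells. The T cell rise was not called with cyclic loess, at 0.15, or as the mean of its probe sets, at 0.17. Its other probe sets moved by 0.42, 0.50 and -0.49 in T cells at 4 h. The difference of -0.64 became -1.06 as the mean of its probe sets.

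Others changed in a single cell type or by unequal amounts. Ube2r2 moved by -2.20 in B cells and -0.37 in T cells, a difference of -1.83 ± 0.15. Ube2d1 and Usp11 fell in B cells and moved by 0.09 ± 0.19 and -0.18 ± 0.19 in T cells, differences of -1.72 ± 0.27 and -1.52 ± 0.27. Usp31, Usp36, Usp10 and Ube2g2 rose in both, further in B cells by 1.46 ± 0.24, 0.83 ± 0.11, 0.88 ± 0.11 and 0.57 ± 0.08. Ube2h (-0.22 ± 0.19), Ube2a (0.14 ± 0.10) and Ube2n (-0.32 ± 0.15) were not called in the interaction; their 95% intervals ran from -0.63 to 0.19, from -0.07 to 0.36 and from -0.64 to 0.00.

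**Figure D4:**
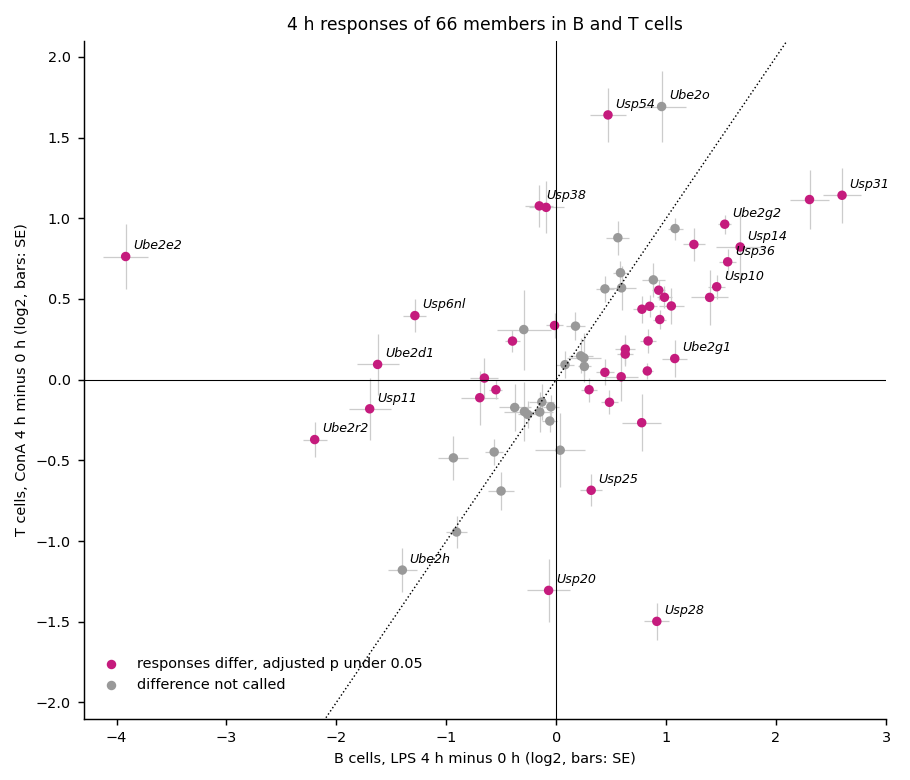
Log2 change with LPS at 4 h in B cells (x axis) against the change with ConA at 4 h in T cells (y axis) for the 66 tested members, with SE bars; magenta points have an interaction p under 0.05 after adjustment and the dotted line marks equal changes. Usp28 lies at 0.92 and -1.50, Ube2e2 at -3.92 and 0.76, and Usp31 at 2.60 and 1.14.

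Other genes of the pathway were listed by function, with earlier results of these data known, and gave the counts below. Over all genes 37.6% rose and 42.3% fell with LPS, and 33.4% and 32.5% with ConA at 4 h. Of 5 E1 enzymes and subunits tested, 3 rose and 2 fell with LPS and 2 rose and 1 fell with ConA at 4 h. Uba6, the E1 that charges Ube2z, rose by 0.93 ± 0.08 in B and 1.15 ± 0.08 in T cells, and Uba7, the E1 of the ubiquitin-like protein Isg15, fell by 2.16 in B cells and fell by 1.65 in T cells. Of 7 E2s with other names, 2 rose and 4 fell with LPS, and 3 rose and 2 fell with ConA at 4 h. Cdc34, the relative of Ube2r2 that also works with cullin ligases, rose by 1.47 ± 0.09 with LPS while Ube2r2 fell.

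Of 23 deubiquitinases outside the USP family, 9 rose and 9 fell in B cells, near the shares of all genes, and 11 rose and 4 fell in T cells at 4 h. Their median changes were -0.0018 and 0.21, beside -0.05 and 0.00 of all genes. Tnfaip3 (A20), the NF-kappaB feedback enzyme, rose by 3.48 ± 0.06 with LPS and 2.90 ± 0.06 with ConA at 4 h. Cyld, which cuts K63 chains, fell by 1.09 with LPS and moved by -0.11 ± 0.09 with ConA at 4 h. The linear-chain enzyme Otulin fell by 1.09 with LPS and rose by 0.60 ± 0.10 with ConA. Proteasome deubiquitinases beside Usp14, Uchl5 and Psmd14, rose by 1.13 ± 0.06 and 0.77 ± 0.06 with LPS and by 0.46 ± 0.06 and 0.46 ± 0.06 with ConA. Of 6 USP cofactors 3 rose and 2 fell with LPS: G3bp1, the Usp10 partner, rose by 1.49 ± 0.07, and Eny2 and Atxn7, which sit beside Usp22 in SAGA, changed by 1.66 ± 0.08 and -1.35 ± 0.10.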

How the data were processed

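Affymetrix mouse 3-prime arrays, 15 in all, were analysed in 5 groups of 3. The deposited values are log2 signals that the authors made with GCRMA (a method that corrects background by probe sequence and summarises probe sets), per the submitters' processing notes and the values; no version is given there. GCRMA sets dim probe sets to a floor, where 41.4% of values lie (within 0.005), and so can understate or overstate changes near it. Array medians ran from 2.42 to 2.57. Of 45101 probe sets, 64 controls were left out; of the others 34958 had 1 symbol in GEO's platform annotation, 932 several and 9211 none, and 34754 of the single symbols were found by gene identifier in RefSeq.

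Differences were fitted with limma 3.58.1 in R 4.3.3: a group-means model over all 15 arrays, which shared 1 estimate of the spread (10 residual degrees of freedom), with eBayes, and Benjamini-Hochberg adjustment within each comparison over the 9044 genes with a highest group mean of at least 5. The fit was tested on simulated data. Values after ± are SEs of the fit unless marked SD. Members named were the 8 largest called rises and falls in each comparison with a level of at least 7 and no overlap of arrays, up to 3 called members of each role, members of opposite called direction in the interaction, and those not tested; others named here were chosen after their values were seen. The members and the lists were chosen with earlier results of these data known. Upstream windows came from RefSeq (GRCm38.p6). Alternatives tried were the filter, scaling, probe set, variance prior, arrays in the fit, replicate block and leaving out arrays.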

Additional observations from a re-analysis of the deposited data

Results flagged for a closer look

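The 4 h response differed between B cells with LPS and T cells with ConA in 40 of 66 members by a test of the difference itself (limma interaction term, adjusted over 9044 genes), 60.6% beside 66.1% of all genes. Given here are the 8 largest differences in each direction among those with a level of at least 7 and no overlap between the B cell and the T cell changes. The B cell change exceeded the T cell change for Usp28 (difference 2.41, adjusted p = 1.5e-08), Usp31 (1.46, adjusted p = 0.00011), Ube2t (1.04, adjusted p = 0.0021) and Usp25 (1.00, adjusted p = 2.7e-05). The same held for Ube2g1 (0.95), Usp37 (0.89), Usp10 (0.88) and Usp14 (0.85), of which Usp14 was not called without B cell 0 h replicate 3 (0.77) or without T cell 0 h replicate 1 (0.73) or 3 (0.78), and was 0.53 without ConA 4 h replicate 1. Usp36 (0.83) and Ube2g2 (0.57), named above, met the same rule with smaller differences.

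The T cell change exceeded the B cell change for Ube2e2 (-4.68), Ube2r2 (-1.83), Ube2d1 (-1.72), Usp6nl (-1.68), Usp11 (-1.52), Usp38 (-1.23), Usp33 (-0.66) and Ube2b (-0.64). For Ube2e2 3 of the 4 groups in this comparison lay below 5. It passed the filter through resting B cells alone, so its p-value gives no support. Each difference compares LPS in B cells with ConA in T cells, so cell type and stimulus cannot be told apart.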

How the results depend on the processing

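For 183 called member differences, 2983 alternatives were run: 2843 kept direction and call, 130 kept direction and lost the call, and 10 reversed. The mean of all probe sets of a gene raised the falls at 14 h of ConA from 12 to 19 against 0 h and from 12 to 19 against 4 h, and reversed Ube2d2a at 4 h (0.0033), Ube2b (-0.081) and Ube2j2 (-0.17) at 14 h, Ube2k (-0.18), Usp24 (-0.17) and Usp32 (-0.31) between the times, and Ube2d2a (0.41), Ube2k (0.45) and Usp48 (-0.16) between resting B and T cells. Cyclic loess reversed Ube2f between resting cells (0.0025). With it 21 members were higher and 23 lower in resting B cells, and with array medians set equal 17 and 35. Leaving out single arrays gave 34 to 36 rises and 14 to 16 falls with LPS, 29 to 32 and 10 to 12 at 4 h of ConA, 24 to 29 and 9 to 11 at 14 h, 8 to 15 and 9 to 12 between the times, 17 to 18 higher and 25 to 29 lower in resting B cells, and 25 to 29 and 12 to 14 in the interaction. The 8 rises came without ConA 14 h replicate 3. Deviations of same-numbered arrays from their group means correlated at -0.46 to 0.24 over 30 pairs, 3 of them above 0.1. Those of different-numbered arrays correlated at -0.43 to 0.58 over 60 pairs, 8 of them above 0.1. The highest joined resting T cell replicate 2 and ConA 4 h replicate 1. With means of 3 arrays and such arrays among them, the check cannot exclude pairing by replicate number. With the replicate number as a block 36 members rose and 16 fell with LPS, 15 and 12 between 4 h and 14 h, and 19 were higher and 28 lower in resting B cells. Differences near the floor are limited by signal over background.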
